A study of Mus musculus with 4 samples.

Results

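Marker genes of retinal Müller glia and of astrocytes, 7 in all, were followed in the RNA-seq data of mouse lenses that lack S100A4: *Glul*, *Apoe*, *Aqp4*, *Car14*, *Car2*, *Gfap* and *Clu*. They were chosen by symbol, through the Ensembl identifiers of the normalized expression table, and all 7 were found among its 14924 genes. The study profiled whole lenses of 1-month-old mice, 2 libraries from S100A4-/- (null) mice and 2 from WT littermates, both groups on a C57BL/6J background and untreated. Each library was made from a pool of 6 to 12 lenses, so animals within a pool cannot be told apart. The null mice lack the gene in every tissue and not only in the lens. RNA of the whole lens was measured, so more cells of a type and more RNA per cell cannot be told apart.

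Müller glia span the retina from its inner to its outer surface, clear glutamate and potassium released by neurons and recycle glutamate to glutamine, while astrocytes do the same work along the optic nerve and the inner retinal vessels. Both are recognized by a small set of proteins for glutamine synthesis, water and bicarbonate transport, lipid carriage and intermediate filaments. Several of these genes are also active in tissues outside the nervous system, and the lens contains neither cell type.

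The labels held up against the genes that define them. A normalized value is the number of reads of a gene divided by the size factor of its library, and 1 read was worth between 0.856 and 1.09. *S100a4* (ENSMUSG00000001020) stood at 14420 and 14385 in WT lenses and at 14.6 and 18.2 in lenses of null mice, a log2 fold change of -9.70 (SE 0.10, limma adjusted p = 6.42e-41). All 18 lens markers listed, among them the crystallin *Cryaa*, the fiber water channel *Mip* and the filament gene *Bfsp1*, had reads in every library. By limma 0 of the 18 passed the threshold of at least 2-fold with an adjusted p of at most 0.05, and DESeq2 and edgeR also called 0. At an unadjusted p under 0.05, which 17.7% of all genes tested reached, 5 of them were lower. *Cryaa*, the most abundant, had a log2 fold change of -0.07. Total reads were 81602367 and 74108017 in S100A4-/- and 70253985 and 68038158 in WT.

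*Glul* and *Apoe* rose in the S100A4-/- lens, 2.92-fold and 3.69-fold, and the other 5 glial markers did not pass the threshold in either direction. Of the 14780 genes tested 3.65% passed as higher and 0.0744% as lower, 3.72% in all. DESeq2 and edgeR called the same 2 of the 7, beside 2.89% and 3.82% of all genes, and at an adjusted p of at most 0.05 alone limma also gave these 2, beside 6.96%. The 2 that rose are the glutamine-making enzyme and a lipid carrier, whereas the water channel, both carbonic anhydrases, the glial filament gene and clusterin had log2 fold changes between -0.08 and 0.09. Over the 7 genes the median log2 fold change was 0.08, beside -0.01 over all genes tested. In 3 of the 7 both null values lay above both WT values, in 0 they lay below and in 4 the groups overlapped. Over all genes tested the groups did not overlap in 46.9%, with null above in 23.7% and below in 23.2%. The study named *Glul* from these same samples, and *Apoe* was measured in them too, so neither rise here is independent evidence. For glutamine synthetase the study also reported an increase by RT-PCR, qRT-PCR and immunoblotting, which are not part of these data. Ordered by p, *Apoe* was number 5 and *Glul* number 9 of the 539 genes that rose.

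**Figure D1:**
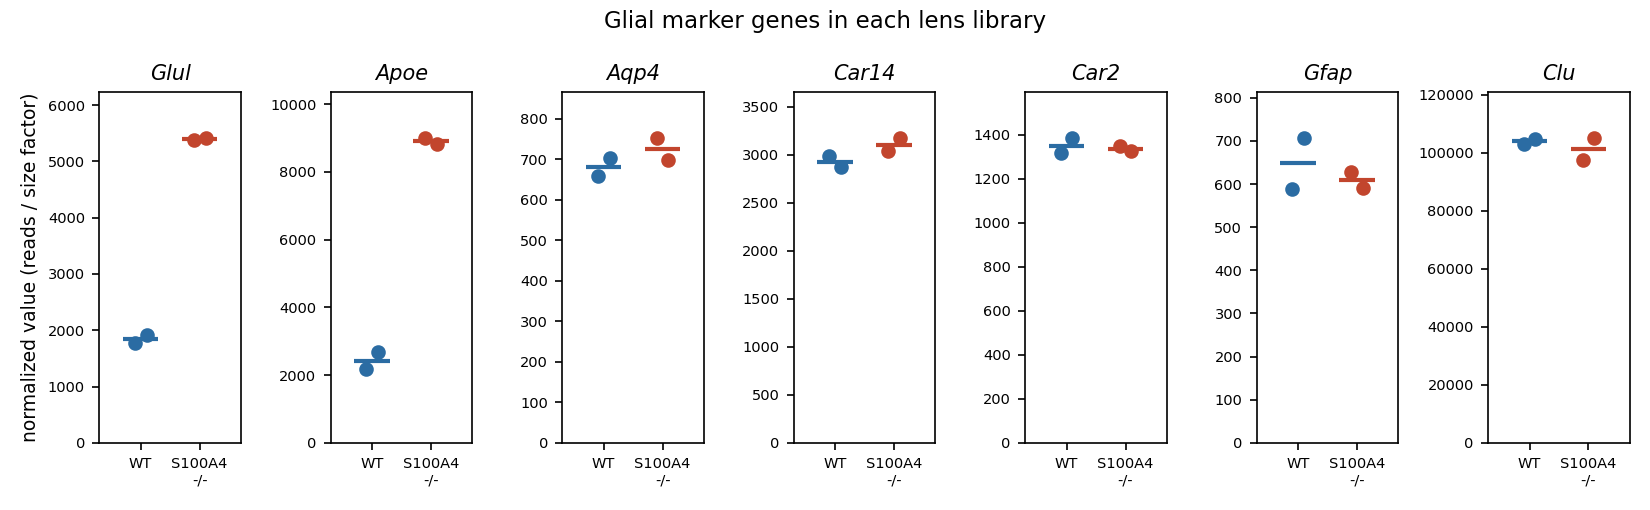
Normalized value (reads divided by the library's size factor, vertical axes from 0) of each glial marker gene in the 2 WT (blue) and 2 S100A4-/- (red) libraries. Points are libraries and lines are group means. *Glul* and *Apoe* lie far above WT in both S100A4-/- libraries, and the other genes stay near their WT level.

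The stretches before the transcription start of 3 of the genes are shown because they belong to the 2 that rose and to *Car14*, which did not pass. They are the 250 bases upstream of the RefSeq start on GRCm38.p6, written 5′ to 3′ on the strand of the gene, and for *Apoe*, which has 3 annotated starts, the one farthest upstream. Capitals mark TAATCC, the letters bound by the Crx and Otx homeobox factors, or its reverse complement GGATTA. The first lies at chr1:153899679-153899928 on the plus strand, the second at chr7:19699189-19699438 and the third at chr3:95904686-95904935, both on the minus strand.
Glul: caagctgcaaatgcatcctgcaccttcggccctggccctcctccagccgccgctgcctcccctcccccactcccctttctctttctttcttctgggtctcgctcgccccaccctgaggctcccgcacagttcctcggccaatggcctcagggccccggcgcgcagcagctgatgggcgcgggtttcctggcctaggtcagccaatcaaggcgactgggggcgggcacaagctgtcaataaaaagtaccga
Apoe: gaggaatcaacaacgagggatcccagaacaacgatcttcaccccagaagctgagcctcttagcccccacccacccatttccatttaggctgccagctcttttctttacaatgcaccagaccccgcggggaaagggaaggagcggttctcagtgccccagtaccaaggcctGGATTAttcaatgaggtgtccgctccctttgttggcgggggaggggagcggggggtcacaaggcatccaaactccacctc
Car14: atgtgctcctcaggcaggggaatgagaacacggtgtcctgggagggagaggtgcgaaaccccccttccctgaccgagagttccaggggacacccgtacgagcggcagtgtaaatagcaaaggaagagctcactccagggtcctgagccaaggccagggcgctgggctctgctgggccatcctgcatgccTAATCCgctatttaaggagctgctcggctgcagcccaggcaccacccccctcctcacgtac

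In *Apoe* the letters stood 80 to 75 bases before the start, and in *Car14* 61 to 56 bases before it. They were not in the *Glul* window, in the windows of the other 2 *Apoe* starts or in that of *Gfap*. Of all 32851 windows of 250 bases in the RefSeq set, 6.25% held TAATCC on either strand. AACAAT (Sox factors), TTCNNNGAA (Stat factors) and CACGTG (an E-box) were in none of the windows of these genes, nor in that of *Gfap*, where 9.42%, 7.02% and 6.02% of all windows held them. These are matches of letters only. The share of G and C was 64.8% in *Glul*, 62% in *Car14* and 55.6% in *Gfap*, and 57.2%, 51.2% and 52% in the 3 windows of *Apoe*, beside a median of 52.4% over all windows. Windows of 4 of the 7 genes were used, and those of *Aqp4*, *Car2* and *Clu* were not analysed here.

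*Glul* encodes glutamine synthetase, the enzyme that joins ammonia to glutamate and a standard marker of Müller glia and astrocytes. The gene (ENSMUSG00000026473) lies on chromosome 1 from 153899944 to 153909723 on the plus strand of GRCm38, with 3323 bases of exon. Its values were 5387 and 5421 in S100A4-/- and 1779 and 1923 in WT. The 2 null libraries were nearly equal to each other and both lay far above both WT libraries. The mean rose from 1851 ± 101 (SD, n = 2) to 5404 ± 23.9, a gain of 3553. The log2 fold change was 1.55 (SE 0.05, 95% interval 1.43 to 1.66, limma adjusted p = 4.74e-23), which is 2.92-fold with an interval of 2.70 to 3.16. Behind these values stood 6291 and 5349 null reads against 1704 and 1756 WT reads. DESeq2 (1.55) and edgeR (1.55) gave the same log2 fold change on recovered reads. The exons of *Glul* share 116 bases with *Teddm2* on the opposite strand, a gene with a mean value of 7.43. They share 93 bases with *Mir8114* on the same strand, which has no value here. The part of reads from these genes in the values of *Glul* was not tested.

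*Apoe* encodes apolipoprotein E, the main lipid carrier secreted by glia of the brain and retina and a ligand of the LDL receptor family. The gene (ENSMUSG00000002985) lies on chromosome 7 from 19696109 to 19699188 on the minus strand, with 2138 bases of exon. Its values were 9011 and 8824 in S100A4-/- and 2170 and 2690 in WT. The WT libraries were farther apart than the null libraries, and the groups were separated by a wide gap. The mean rose from 2430 ± 368 (SD, n = 2) to 8918 ± 132. The log2 fold change was 1.88 (SE 0.06, 95% interval 1.76 to 2.01, limma adjusted p = 3.90e-24), or 3.69-fold with an interval of 3.38 to 4.02. Read numbers were 10522 and 8707 for the null pools and 2078 and 2457 for the WT pools. The log2 fold change was 1.88 by DESeq2 and 1.88 by edgeR.

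The genes that flank them did not pass. Of the 3 nearest genes of the table on either side of *Apoe*, between 2125 and 91623 bases away, 0 of 6 passed in limma, DESeq2 or edgeR and 0 had an unadjusted p under 0.05 in limma, with log2 fold changes from -0.15 to 0.27. Around *Glul*, 5 of the 6 nearest genes could be tested. By limma, DESeq2 and edgeR 0 of the 5 passed, and 0 had an unadjusted p under 0.05 in limma.

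*Aqp4* encodes the water channel of glial endfeet. The gene (ENSMUSG00000024411) lies on chromosome 18 from 15389496 to 15410982 on the minus strand. Its values were 753 and 698 in S100A4-/- and 659 and 702 in WT. The groups overlapped, and the log2 fold change was 0.09 (SE 0.09, 95% interval -0.08 to 0.26, limma adjusted p = 0.637). The upper end of that interval corresponds to 1.20-fold, so a rise of the size of *Glul* or *Apoe* lies outside it.

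The 2 carbonic anhydrases convert carbon dioxide to bicarbonate, *Car14* at the cell surface and *Car2* in the cytosol. *Car14* (ENSMUSG00000038526, chromosome 3 from 95897768 to 95904691, minus strand) had values of 3037 and 3178 in S100A4-/- and 2987 and 2874 in WT. Both null values were above both WT values, as for 23.7% of all genes tested, but the step was small, with a log2 fold change of 0.08 (SE 0.05, 95% interval -0.03 to 0.20, limma adjusted p = 0.455). Its exons share 445 bases with *Aph1a* on the opposite strand, which had a mean value of 173. *Car2* (ENSMUSG00000027562, chromosome 3 from 14886273 to 14900770, plus strand) had values of 1349 and 1326 against 1315 and 1386. The groups overlapped, and the log2 fold change was -0.01 (SE 0.07, 95% interval -0.15 to 0.12, limma adjusted p = 0.948). Both genes are on the chromosome of *S100a4*, *Car14* at a distance of 5291723 bases and *Car2* at 75703001.

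*Gfap* encodes the intermediate filament protein of astrocytes, which Müller glia take up when the retina is injured. The gene (ENSMUSG00000020932) lies on chromosome 11 from 102887336 to 102900912 on the minus strand. Its values were 628 and 591 in S100A4-/- and 589 and 707 in WT, so the lowest and the highest value were both from WT. The log2 fold change was -0.08 (SE 0.09, 95% interval -0.27 to 0.10, limma adjusted p = 0.714).

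*Clu* encodes clusterin, a secreted chaperone that also travels with lipoproteins. The gene (ENSMUSG00000022037) lies on chromosome 14 from 65968483 to 65981547 on the plus strand. Its values were 97421 and 105130 in S100A4-/- and 103029 and 104763 in WT. The null libraries held both the lowest and the highest value. The log2 fold change was -0.04 (SE 0.04, 95% interval -0.12 to 0.05, limma adjusted p = 0.714).

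**Figure D2:**
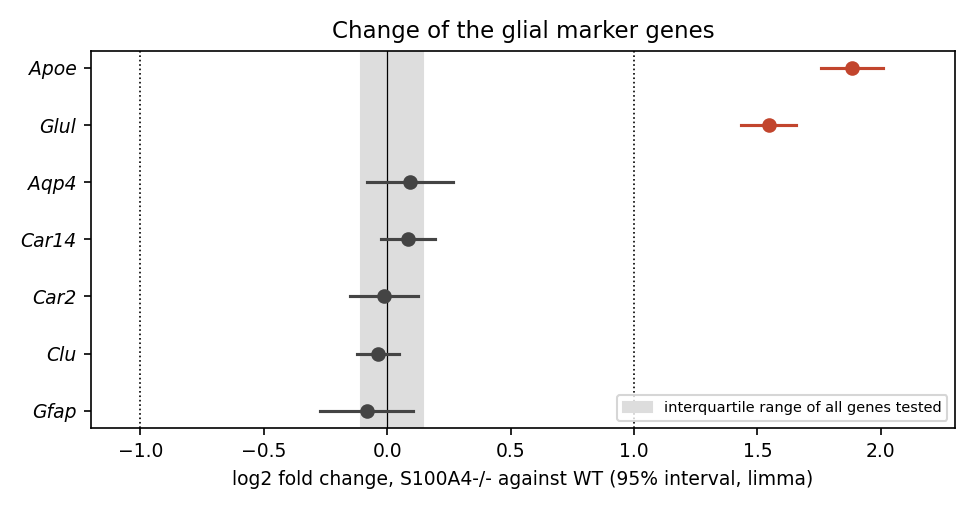
Log2 fold change of each glial marker gene, S100A4-/- against WT, with its 95% interval from limma (horizontal axis), 1 gene a row. Red marks genes past the threshold, dotted lines a 2-fold change and the grey band the interquartile range of all genes tested (-0.11 to 0.15). *Apoe* at 1.88 and *Glul* at 1.55 lie beyond the dotted line and the other 5 between -0.08 and 0.09.

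All 7 genes were already present in the WT lens. For levels between genes, values were divided by the exon length in kilobases. In WT *Clu* had the highest level, 30229 ± 357 per kb (SD, n = 2). *Car14* at 1152 ± 31.5 per kb and *Apoe* at 1137 ± 172 per kb followed and did not differ beyond their spread. *Car2* at 557.5 ± 20.9 per kb and *Glul* at 557.0 ± 30.5 per kb did not differ beyond it either. *Gfap* with 154 ± 19.8 per kb and *Aqp4* with 109 ± 4.87 per kb had the lowest levels, with *Gfap* above *Aqp4* in both libraries. In S100A4-/- the order of the middle genes was different. *Apoe* reached 4171 ± 61.5 per kb and *Glul* 1626 ± 7.20 per kb, both above *Car14* at 1222 ± 39.4 per kb and *Car2* at 552 ± 6.75 per kb, while *Clu* at 29466 ± 1586 per kb stayed highest and *Gfap* (144 ± 6.18 per kb) and *Aqp4* (116 ± 6.18 per kb) lowest.

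**Figure D3:**
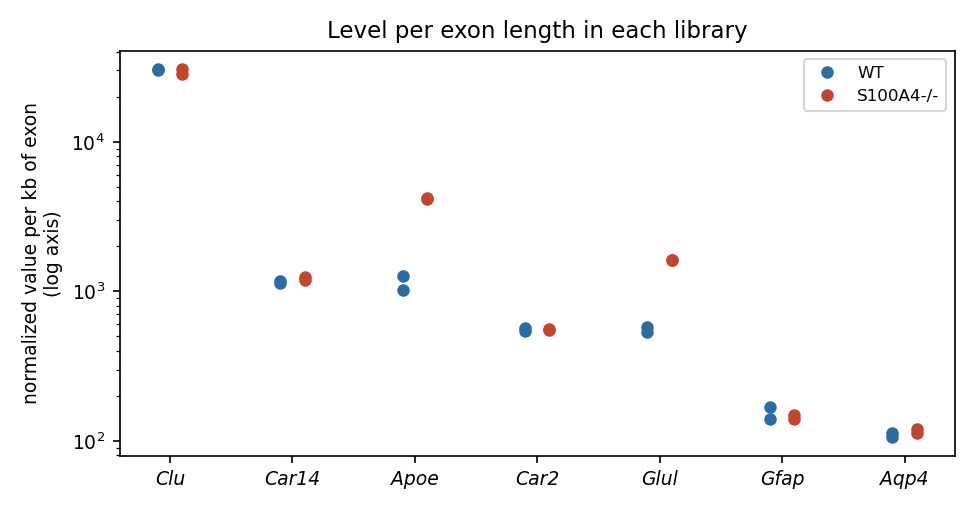
Normalized value per kilobase of exon (log axis) of each glial marker gene in the WT (blue) and S100A4-/- (red) libraries, ordered by the WT mean, with 1 point a library. *Apoe* and *Glul* move above *Car14* in S100A4-/-, and *Clu* is highest in all 4 libraries.

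The profiles nearest to each gene that rose were found among the 11262 genes that had a symbol, were not among the 7 and reached a mean value of 50, by the Euclidean distance between centred log2 values over the 4 libraries. For *Glul* these included *Cntn1*, a neuronal adhesion molecule (distance 0.122), and *Papss2*, which makes the sulfate donor of the cell (0.124). For *Apoe* they were *Tbx2*, a transcription factor (0.0389), *Penk*, the enkephalin precursor (0.0414), and *Fbln1*, an extracellular matrix protein (0.0577). *Fbln1* followed *Apoe* library by library, with values of 3906 and 3709 in S100A4-/- and 890 and 1144 in WT. With 2 libraries a group such nearness is a description only.

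Among other Müller glia genes some rose and the most abundant did not pass. Of 20 listed, 6 rose by limma and 0 fell, beside 3.72% of all genes tested past the threshold, with a median log2 fold change of 0.32. *Rlbp1*, the retinaldehyde-binding protein of the visual cycle, had values of 267 and 219 in S100A4-/- and 84.6 and 97.4 in WT (log2 fold change 1.40), and the glutamate transporter *Slc1a3* had 302 and 222 against 80.4 and 101 (1.51). The transporter *Abca8a* (2.33) and the transcription factors *Lhx2* (1.96) and *Plagl1* (2.16) rose as well. *Crym*, a thyroid hormone-binding protein, had 29.1 and 23.3 against 5.22 and 0, where 0 allows up to 3 reads. The study itself named *Rlbp1*, *Slc1a3*, *Lhx2* and *Plagl1* from these samples. Of the genes counted further on it also named *Gad1*, *Slc4a5*, *Slc4a10* and the 14 rod genes that rose. The same holds for *Best2*, *Otx1* and *Slc13a4* of the ciliary body list, *Otx2* of the bipolar list and *Slc6a9* of the amacrine list. None of these is independent evidence of the direction. The same holds for every other gene here, since the study analysed the same libraries. Other textbook markers did not pass. The potassium channel *Kcnj10* had a log2 fold change of 0.59 (limma adjusted p = 0.404), *Sox9* of 0.16 (0.702) and *Sox2* of -0.03 (0.833). The most abundant, *Vim*, had -0.10. *Gpr37* at 0.71 (0.00758), *Prdx6* at 0.23 (0.00718) and *Timp3* at 0.21 (0.00106) reached the adjusted p but were under 2-fold. At an unadjusted p under 0.05 in limma, 12 of the 20 were higher and 2 lower, beside 17.7% of all genes tested in either direction. DESeq2 and edgeR also called 6 higher, and limma called 4 without S100A4-/- library 1 and 5 without library 2.

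Of 18 astrocyte genes listed, 16 were analysed, with a median log2 fold change of 0.12. At an unadjusted p under 0.05 in limma, 7 were higher and 2 lower, beside 17.7% of all genes tested in either direction. By limma 2 rose past the threshold and 0 fell, beside 3.72% of all genes tested. *Igfbp2*, a binding protein of insulin-like growth factors, had values of 258 and 270 in S100A4-/- and 61.6 and 71.2 in WT (log2 fold change 1.98). The matrix protein *Sparcl1* had 146 and 169 against 66.8 and 86.5 (1.04). The glutamate transporter *Slc1a2* had a log2 fold change of 0.91 (limma adjusted p = 0.000808), which reached the adjusted p but was under 2-fold. The folate enzyme *Aldh1l1* had 0.47 (0.0711) and reached neither. The most abundant of the list was the glycolytic enzyme *Aldoc*, at -0.18. The count fell to 1 without S100A4-/- library 1, library 2 or WT library 1 and was 3 without WT library 2.

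Around glutamine synthetase, 19 genes of glutamate and glutamine handling were analysed of 20 listed. At an unadjusted p under 0.05 in limma, 11 were higher and 0 lower, beside 17.7% of all genes tested in either direction. At an adjusted p of at most 0.05 alone, 8 were higher and 0 lower, beside 6.96%. By limma 3 rose past the threshold and 0 fell, beside 3.72% of all genes tested, with a median of 0.19. *Asns*, which uses glutamine to make asparagine, had values of 534 and 569 in S100A4-/- and 247 and 228 in WT (log2 fold change 1.21). *Gad1* and *Gad2*, which turn glutamate into GABA, were low: *Gad1* had 89.9 and 63.8 against 26.1 and 25.2, and *Gad2* had 24.0 and 15.2 against 0 and 1.09. The glutamine transporter of glia, *Slc38a3*, had a log2 fold change of 0.23 (limma adjusted p = 0.0261). The most abundant gene, the amino acid transporter *Slc7a5*, had 0.19 (0.006). Both reached the adjusted p but were under 2-fold. The count was 1 without S100A4-/- library 1 and 1 without library 2.

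Related genes were counted by family, beside 3.72% of all genes tested past the threshold. Of 17 carbonic anhydrases and acid-base transporters analysed of 23 listed (median 0.09), 3 bicarbonate transporters rose by limma and 0 genes fell. *Slc4a5* had values of 512 and 510 in S100A4-/- and 78.3 and 119 in WT (log2 fold change 2.39), and *Slc4a10* had 2.46 and *Slc4a8* 1.55. The most abundant, *Slc4a4*, had 0.09. None of the 9 other carbonic anhydrases passed by limma, DESeq2 or edgeR, and 3 had an unadjusted p under 0.05. DESeq2 called 2 of the list, and limma 1 without S100A4-/- library 1, 1 without library 2 and 2 without WT library 1.

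Of 18 aquaporins and genes of the dystrophin complex, which anchors Aqp4 at the endfoot, analysed of 22 listed (median -0.05), 0 passed by limma, DESeq2 and edgeR. At an unadjusted p under 0.05, 1 was higher and 3 were lower. The most abundant, *Mip*, had a log2 fold change of -0.12 and the water channel *Aqp5* of -0.23 (adjusted p = 0.00134, under 2-fold). Under quantile normalization 1 of them, *Aqp3*, passed as lower.

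Of 12 intermediate filament genes analysed of 14 listed (median 0.02), 2 neuronal filament genes rose by limma and 0 genes fell. *Nefl* had values of 108 and 99.3 in S100A4-/- and 51.2 and 25.2 in WT (log2 fold change 1.50), and *Ina* had 40.2 and 51.7 against 4.18 and 24.1 (2.03). DESeq2 called only *Nefl*. The most abundant, the lens filament gene *Bfsp1*, had -0.06. The count was 0 without S100A4-/- library 1, 0 without library 2, 1 without WT library 1 and 3 without WT library 2.

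Of 18 genes of apolipoprotein handling analysed of 26 listed (median 0.16), 4 rose by limma and 0 fell. *Lrp2*, an endocytic receptor of the LDL receptor family, had values of 386 and 302 in S100A4-/- and 128 and 176 in WT (log2 fold change 1.18). *Lrp5* (1.19), the sterol exporter *Abcg1* (1.20) and the phospholipid transfer protein *Pltp* (1.18) also rose. The most abundant, *Lrp1*, had a log2 fold change of 0.23 and *Vldlr* of 0.44, both under 2-fold. The count was 0 without S100A4-/- library 1, 2 without library 2 and 1 without WT library 1.

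Of 17 genes of reactive gliosis analysed of 18 listed (median 0.02), 2 secreted proteins rose by limma and 0 genes fell. *Lcn2*, an iron-siderophore carrier, had values of 67.7 and 76.0 in S100A4-/- and 12.5 and 25.2 in WT (log2 fold change 1.95), and the protease inhibitor *Serpina3n* had 125 and 98.3 against 51.2 and 50.4 (1.11). *Stat3* had a log2 fold change of -0.03, and *Vim*, the most abundant, of -0.10, beside *Gfap* at -0.08. The count was 0 without S100A4-/- library 1, 0 without library 2 and 3 without WT library 2. When limma was run without its variance trend, 1 of the other Müller glia genes, 1 of the astrocyte genes and 1 of the glutamate and glutamine genes passed, and 0 did in the acid-base, filament, lipoprotein and gliosis lists, while *Glul* and *Apoe* passed.

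**Figure D4:**
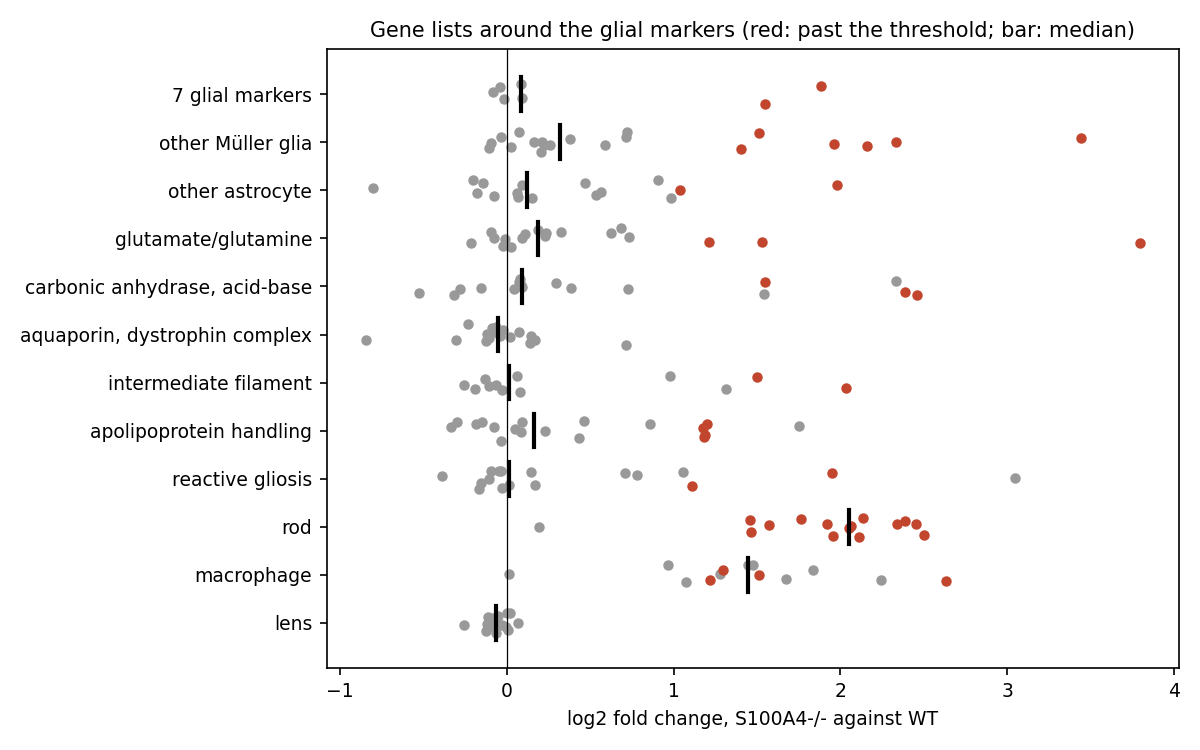
Log2 fold change, S100A4-/- against WT (horizontal axis), of the genes tested in each list (rows), with 1 point a gene, red where limma called it and a black bar at the median. The medians of the glial and family lists lie between -0.05 and 0.32, that of rod genes at 2.05, that of macrophage genes at 1.45 and that of lens genes at -0.06.

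Markers of other cells of the eye moved with *Glul* and *Apoe*. Counts of genes that rose, here and in the next paragraph, are by limma and stand beside 3.65% of all genes tested. Of 15 rod photoreceptor genes 14 rose, with a median log2 fold change of 2.05, and their summed values were 18929 and 18494 in S100A4-/- and 8095 and 8429 in WT. *Gnb1*, the most abundant of them and a G protein subunit of many cells, had 0.19. Without S100A4-/- library 1 or library 2, 14 rod genes passed. Of 14 ciliary body genes 10 rose (median 2.12), with sums of 12471 and 11956 against 8053 and 8726 and *Tgfb2* as the most abundant (-0.22). Of 12 amacrine and ganglion cell genes 8 rose (1.66), with sums of 3064 and 3066 against 2067 and 2144 and *Tfap2a* as the most abundant (0.02), and 1 passed without S100A4-/- library 1 and 1 without library 2. Of 9 bipolar cell genes 4 rose (1.66), with sums of 3089 and 2840 against 2307 and 2243 and *Prkca* as the most abundant (0.04). DESeq2 called 2 of these, and limma 0 without S100A4-/- library 1 and 2 without library 2. Of 12 pigment epithelium and melanocyte genes 7 rose (1.28), with sums of 3177 and 3169 against 1885 and 2024 and *Mitf* as the most abundant (-0.15), and 2 and 3 passed without S100A4-/- library 1 and library 2.

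Macrophages and microglia, which also make *Apoe*, had low markers. Of 13 analysed of 15 listed, 4 rose by limma, *Csf1r*, *C1qa*, *C1qb* and *C1qc*, with a median log2 fold change of 1.45. Their summed values were 536 and 464 in S100A4-/- and 245 and 239 in WT. *Cd163*, the most abundant, had a log2 fold change of 0.01. DESeq2 called only *Csf1r*, and limma called 0 without S100A4-/- library 1 and 0 without library 2. Of 11 endothelial genes tested 2 rose, *Kdr* and *Flt1* (median 0.78), with sums over the 12 analysed, 1 of them too low to test, of 915 and 889 against 559 and 664 and *Egfl7* as the most abundant (0.09), and 1 passed without S100A4-/- library 1. Of 5 oligodendrocyte genes analysed of 12 listed, 0 passed by limma, DESeq2 and edgeR and 0 had an unadjusted p under 0.05 by limma (median 0.23), with sums of 150 and 134 against 151 and 88.7 and *Cnp* as the most abundant (0.62). Without limma's variance trend 12 rod, 4 ciliary body, 1 amacrine and ganglion cell, 0 bipolar cell, 4 pigment, 1 macrophage and 2 endothelial genes passed. The part of any of these cell types in the values of *Glul* and *Apoe* was not tested.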

How the data were processed

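Stranded mRNA-seq libraries of 4 lens pools were analysed, 2 S100A4-/- and 2 WT, grouped by their sample labels. Trim Galore, STAR on GRCm38 and HTSeq were used by the authors for trimming, mapping and counting of single-locus reads (the strand setting of HTSeq is not given in the sources used here), followed by a minimum of 10 reads in 1 library or more and DESeq2 normalization. The versions are not given in the sources used here. The deposited signal values are counts divided by 1 size factor per library, not by gene length. Columns that matched no sample numbered 0.

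Dividing by the value of 1 read gave whole numbers for 100% of values in every library (tolerance 0.01), so reads were recovered, and a count of 0 allows up to 3 reads. Intervals and floors cover counting error or the spread of libraries only. Symbols, coordinates and exon lengths came from GENCODE M21 for 14782 genes. limma 3.58.1 (eBayes with trend, R 4.3.3) was run on log2(value + 1). It covered 14780 genes that reached a value of 10 in any library, and 144 were left out. Fold changes are on that scale and understate those of low genes. Benjamini-Hochberg adjustment ran over the whole table, and intervals are 95%. DESeq2 1.42.0 and edgeR 4.0.16 on recovered reads, other pseudocounts, filters, scalings and thresholds, a replicate block and leaving out each library were alternatives. The fits were tested on simulated data. Nothing states that the 2 pools of a group came from separate litters, so p-values cannot be taken to measure a spread between litters. The eBayes step of limma draws the variance of each gene toward that of genes of similar level. Its SEs, intervals and p-values therefore do not rest on the 2 pools of a group for that gene alone. For *Apoe* the interval was 1.76 to 2.01, while leaving out 1 library gave log2 fold changes from 1.73 to 2.04.

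Named were the 7 genes, *S100a4*, list genes past the threshold or most abundant in their list, and the 3 nearest profiles of each gene that rose, of which 1 is not reported here. Other list genes named were picked with their values in view. The genes and lists were chosen with earlier results of these data known.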

Additional observations from a re-analysis of the deposited data

How the results depend on the processing

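*Glul* and *Apoe* passed under all 17 alternatives and the other 5 markers under none. The log2 fold change of *Glul* stayed between 1.54 and 1.58 with all libraries and between 1.49 and 1.60 with 1 left out, and that of *Apoe* between 1.88 and 1.91 and between 1.73 and 2.04. Their largest adjusted p with all libraries, 0.0301 and 0.0432, came from limma without the variance trend. With 1 left out, the lone library of a group is assumed to vary like the others.

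The number of genes past the threshold was 550. It was 287 with a mean value of at least 50, where fewer genes were tested, 181 without the trend, 1028 with no fold threshold and 171 with the treat test against 2-fold. It ranged from 172 without S100A4-/- library 1, through 216 without S100A4-/- library 2, to 559 without WT library 1. The cause was not tested. DESeq2 called 427 and edgeR 564. By list, the treat test called 3 of the other Müller glia genes, 1 astrocyte, 1 acid-base and 0 glutamate and glutamine genes. It called 0 in the filament, lipoprotein, gliosis, bipolar cell and macrophage lists. Of the rest, 1 amacrine and ganglion cell, 3 pigment, 2 endothelial, 9 ciliary body and 13 rod genes passed it. Under quantile normalization 2 lipoprotein, 2 bipolar cell, 1 macrophage, 1 astrocyte, 1 filament and 1 gliosis gene passed.

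With the replicate number as a block, 591 genes passed and the markers past the threshold stayed at 2. Deviations of same-numbered libraries correlated at 0.01 over the genes tested, so the numbers were not taken to pair the pools.

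Values near 0 changed sign. Under quantile normalization *Bfsp1* was at 0.023, *Cd163* at -0.13 and *Sox2* at 0.0002. With equal totals *Car2* was at 0.015. With 1 library left out, *Car2* ranged from -0.052 to 0.025, *Clu* from -0.093 to 0.017, *Gfap* from -0.22 to 0.048, *Cd163* from -0.15 to 0.18, *Cryaa* from -0.14 to 0.010, *Egfl7* from -0.049 to 0.23 and *Slc4a4* from -0.043 to 0.23. Scaling moved the median of all genes to between -0.03 and 0.02. Over 125 results and 17 alternatives, 148 values of single genes lost the threshold, 1 gained it (*Slc1a2*), 78 counts moved by more than 1.5 times and 1649 values did none of these.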
